A study of Homo sapiens with 16 samples.

Results

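A set of 44 genes of DNA replication and S phase was followed in pancreatic progenitors that were given latrunculin B, which breaks down actin filaments. The set was a fixed list of genes for origin licensing, the replicative helicase, polymerases, nucleotide supply and entry into S phase. Estimated reads were summed per gene, and all 44 genes were found among the 35810 genes with a summed count and were among the 16705 genes tested. The cells were the SA121-derived NGN3-GFP human embryonic stem cell line, a single reporter line, differentiated to day 19 in culture. Every group therefore shared the NGN3-GFP reporter. The 16 libraries fell into 6 groups. The controls were 3 libraries taken at 0 h (control 0 h) and 2 taken at 24 h (control 24 h). Latrunculin B at 0.5 µM (LatB) was present for 3 h in 3 libraries, for 6 h in 3, for 12 h in 2 and for 24 h in 3. Control 24 h received DMSO, the vehicle. Control 0 h carries a DMSO tag as well, whereas the study describes it as taken ahead of treatment. The labels do not say whether replicates came from separate cultures, so p-values measure the spread between these samples, which may be technical. In bulk RNA, fewer cells in S phase and less RNA per cell cannot be told apart.

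Cells copy their DNA once per division. Before S phase, the origin recognition complex, CDC6 and CDT1 load the MCM2-MCM7 helicase onto DNA. Cyclin E with its kinase and the loss of RB from E2F factors then start S phase, and CDC45 and the GINS complex join the helicase to open the fork. Many of the genes are transcribed by E2F factors and peak at the border of G1 and S phase, so their summed level is often used as a sign of cycling cells. Endocrine progenitors that express NEUROG3 leave the cell cycle, whereas the progenitors they arise from divide.

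The libraries held 23609727 to 33515398 estimated reads, and a member rested on 47 reads (POLE2, LatB 6 h) to 5498 reads (MCM7, LatB 24 h) in a library. Progenitor markers were expressed in all groups: the summed TPM (a level scaled for transcript length and library size) of 8 of them was 1331 to 2462 per library. The summed TPM of 6 endocrine markers was 18.2 to 24.6 in control 0 h, 38.5 to 45.9 in control 24 h and 66.1 to 178 in LatB 24 h. In LatB 24 h against control 24 h, 5 of the 6 were called higher, against 21.9% of all genes. Pluripotency markers POU5F1 and NANOG were low (mean TPM of at most 1.71 and 0.21 per group), whereas LIN28A was at 93.2 to 182 TPM. The 12 h libraries stood apart from each other. Their log2 counts correlated at 0.967 across genes, against 0.980 to 0.986 within the other groups, and 1 of them held more liver (3561 against 1285 summed TPM over 5 genes) and more mesenchyme RNA (423 against 73.8 over 6 genes). In the same library 5 endothelial and blood genes summed to 12.1 TPM, against 3.12 in the other 12 h library and 1.01 to 4.75 in the other groups. It had 0 reads for 2 of the 5, so more blood RNA is not shown. Of these 5 genes, the blood marker PTPRC was at 0 or close to it in every group. Exons of 19 members overlap those of a gene on the other strand and exons of 6 overlap those of a gene on their own strand, TYMS, MCM7, GINS2 and DTL among them, and use of strand in the quantification is not given in the sources used here. The values of such genes are uncertain.

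Per length, the members covered a wide range of levels. In control 0 h, PCNA had the highest mean TPM (109), followed by MCM7 (87.2), SLBP (81.2) and TYMS (56.0), and E2F2 the lowest (1.02). The summed TPM of the 44 genes was 907 to 1031 in control 0 h, 833 to 1028 in LatB 3 h, 803 to 918 in LatB 6 h, 773 and 1039 in LatB 12 h, 1041 to 1116 in LatB 24 h, and 688 and 751 in control 24 h. The 3 LatB 24 h libraries lay above all others, and both control 24 h libraries lay below all others. The summed levels of control 0 h, LatB 3 h and LatB 6 h overlapped.

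**Figure D1:**
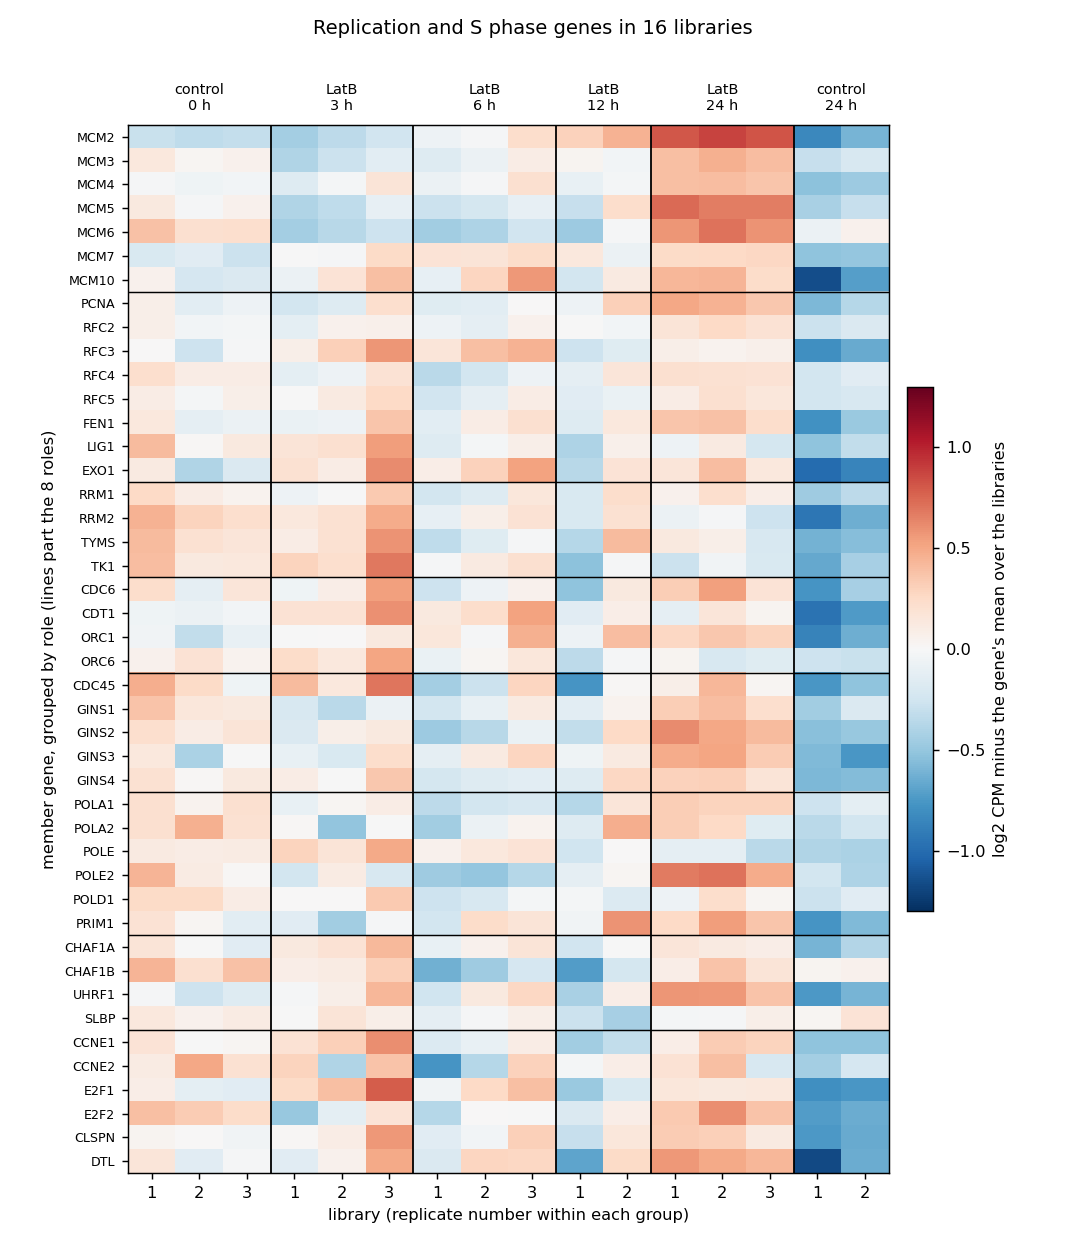
Each row is a member gene and each column a library; colour gives log2 CPM (counts scaled to library size) minus the mean of that gene over the 16 libraries, and the horizontal lines part the 8 roles. Control 24 h was blue in nearly every row and LatB 24 h was red in most, MCM2, MCM5 and MCM6 among them, while SLBP near the bottom was lowest in LatB 12 h.

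Since E2F factors are known for binding the promoters of such genes, the promoters of the members were searched for shared letters. The 250 bases before the RefSeq start (GRCh38.p14) were found for 40 of the 44 members. MCM4, MCM5, GINS4 and CCNE2 had none. The E2F motif was searched as TTTCCCGC, TTTCGCGC, TTTGCCGC or TTTGGCGC on either strand. It stood in 16 of 40 members (40%), in 12.8% of 47 other replication genes and in 7.69% of 26 mitosis genes with a promoter, against 2.79% of 27305 promoters. The CCAAT box (CCAAT on either strand) stood in 55% of the members and 33% of all promoters. The CHR element of mitosis genes (TTTGAA or TTCGAA on either strand) stood in 5% of the members, 53.8% of the mitosis genes and 14.6% of all promoters.

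4 promoters are shown to compare members with and without the motif. E2F matches are in capitals, and the base nearest the start is the last. MCM6 is shown because it fell at 3 h and rose by 24 h, E2F1 because it is itself the factor, PCNA because it had the highest level, and CDC6 because it followed the mean of the set most closely.
MCM6, chr2:135876444-135876693, minus strand: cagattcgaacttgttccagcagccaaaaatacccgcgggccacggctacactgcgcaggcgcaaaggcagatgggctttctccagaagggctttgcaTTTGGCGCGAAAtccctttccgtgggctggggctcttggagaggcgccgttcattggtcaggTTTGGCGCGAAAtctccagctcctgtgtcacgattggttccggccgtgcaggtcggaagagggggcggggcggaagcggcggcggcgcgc
E2F1, chr20:33686386-33686635, minus strand: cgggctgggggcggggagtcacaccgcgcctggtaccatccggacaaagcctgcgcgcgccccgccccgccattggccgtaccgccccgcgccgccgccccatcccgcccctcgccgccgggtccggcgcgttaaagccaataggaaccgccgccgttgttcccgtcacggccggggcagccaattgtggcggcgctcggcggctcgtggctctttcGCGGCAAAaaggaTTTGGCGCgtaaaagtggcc
PCNA, chr20:5126623-5126872, minus strand: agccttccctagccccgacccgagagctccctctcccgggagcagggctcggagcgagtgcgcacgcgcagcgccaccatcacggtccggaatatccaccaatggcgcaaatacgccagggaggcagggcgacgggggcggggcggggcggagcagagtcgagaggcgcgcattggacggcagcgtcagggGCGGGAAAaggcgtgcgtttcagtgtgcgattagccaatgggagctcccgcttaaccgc
CDC6, chr17:40287629-40287878, plus strand: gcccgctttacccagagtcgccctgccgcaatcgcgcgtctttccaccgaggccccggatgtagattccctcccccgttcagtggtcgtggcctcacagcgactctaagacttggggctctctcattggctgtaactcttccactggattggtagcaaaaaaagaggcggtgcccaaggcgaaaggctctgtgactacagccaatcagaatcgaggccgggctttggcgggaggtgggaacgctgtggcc

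MCM6 held the motif at 2 places, each read on both strands and counted as 4 overlapping matches, 152 to 141 and 90 to 79 bases before the start. E2F1 held it at 33 to 26 and 20 to 13 bases and PCNA at 59 to 52 bases. CDC6 held no match and 3 CCAAT boxes, which says only that the letters searched for are not in this window. Near its end the window reads tttggcgg, which differs from a searched form at the last base only.

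The day without drug was compared first, because control 24 h is the reference for the 24 h drug libraries. Of the 44 members, 43 had lower levels in control 24 h than in control 0 h, with a median log2 fold change of -0.59 against 0.01 over all genes tested. In these 43 genes the groups did not overlap, which held in that direction for 14.4% of all genes. The test across all genes called few of them. By edgeR's quasi-likelihood test with Benjamini-Hochberg adjustment, 2 members were called lower (adjusted p under 0.05), against 0.221% of all genes, and 0 were called higher, against 0.0299%. At an unadjusted p under 0.05, 41 members were lower, against 5.3% of all genes.

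The 2 genes called were RRM2, the small subunit of ribonucleotide reductase that makes deoxyribonucleotides, and GINS4, a subunit of the GINS complex. RRM2 was at 59.5, 53.3 and 50.9 CPM in control 0 h and at 22.7 and 28.2 CPM in control 24 h. Its log2 fold change was -1.10 ± 0.15 (SE, adjusted p = 0.0122). GINS4 was at 16.3, 14.3 and 15.5 CPM and then at 9.46 and 9.55 CPM (log2 fold change -0.69 ± 0.13, adjusted p = 0.0469). In both genes every control 24 h library lay below every control 0 h library, and leaving out 1 library at a time left 0 members called without control 0 h replicate 1 or control 24 h replicate 1, and 1 in the other cases. Among the members that did not pass, E2F1, the activator that drives transcription of S phase genes, had 14.5, 12.4 and 12.3 CPM at 0 h and 7.83 and 8.05 CPM at 24 h (-0.72 ± 0.16, adjusted p = 0.0779). CDT1, the licensing factor, had 14.1, 13.9 and 14.3 CPM and then 7.52 and 8.80 CPM (-0.79 ± 0.15, adjusted p = 0.0509). The values of these 2 genes were apart as well, but the adjusted p stayed above the threshold. SLBP, which binds the stem-loop of histone mRNA, was the exception, with 69.4 to 73.2 CPM at 0 h and 67.8 and 75.4 CPM at 24 h.

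The other values of the panel in control 24 h against control 0 h were -0.41 for MCM2, -0.41 for MCM5, -0.69 for CDC6, -0.87 for CDC45, -0.68 for GINS2, -0.44 for PCNA, -0.84 for TYMS, -0.52 for POLE2, -0.59 for CCNE1, -0.61 for CCNE2, -0.53 for UHRF1 and -0.70 for CLSPN (log2), with adjusted p-values from 0.0762 to 0.634. How many members were called depended on the fit. DESeq2 called 22 of the 44 as lower, edgeR with the 2 control groups alone called 16, edgeR without both 12 h libraries (an alternative chosen after seeing the data) called 15, and an offset for transcript length or limma on log2(TPM + 1) called 0. With the length offset the value of POLE2 turned to 0.020.

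At 24 h the drug libraries were compared with the vehicle libraries of the same time. Replication genes were higher in LatB 24 h over nearly the whole set. Of 44 members, 35 were called higher, against 21.9% of all genes, and 0 were called lower, against 18.8%. The median log2 fold change was 0.78, against 0.01 over all genes. In 43 members every LatB 24 h library lay above both control 24 h libraries, against 33.4% of all genes. Leaving out 1 library at a time gave 27 to 36 members called, all higher. An offset for transcript length gave 26 called (median 0.63) and limma on log2(TPM + 1) 24 (median 0.59), all higher.

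Control 24 h was the reference here and also the group that was lower than control 0 h, so the 24 h comparison and the drug-free day share the same 2 control 24 h libraries. Against control 0 h instead, LatB 24 h had 13 members called higher, against 22.7% of all genes, and 3 called lower, against 19.8%. The median log2 fold change was then 0.16, and 31 of the 44 values were positive. All 13 had also been called higher against control 24 h.

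**Figure D2:**
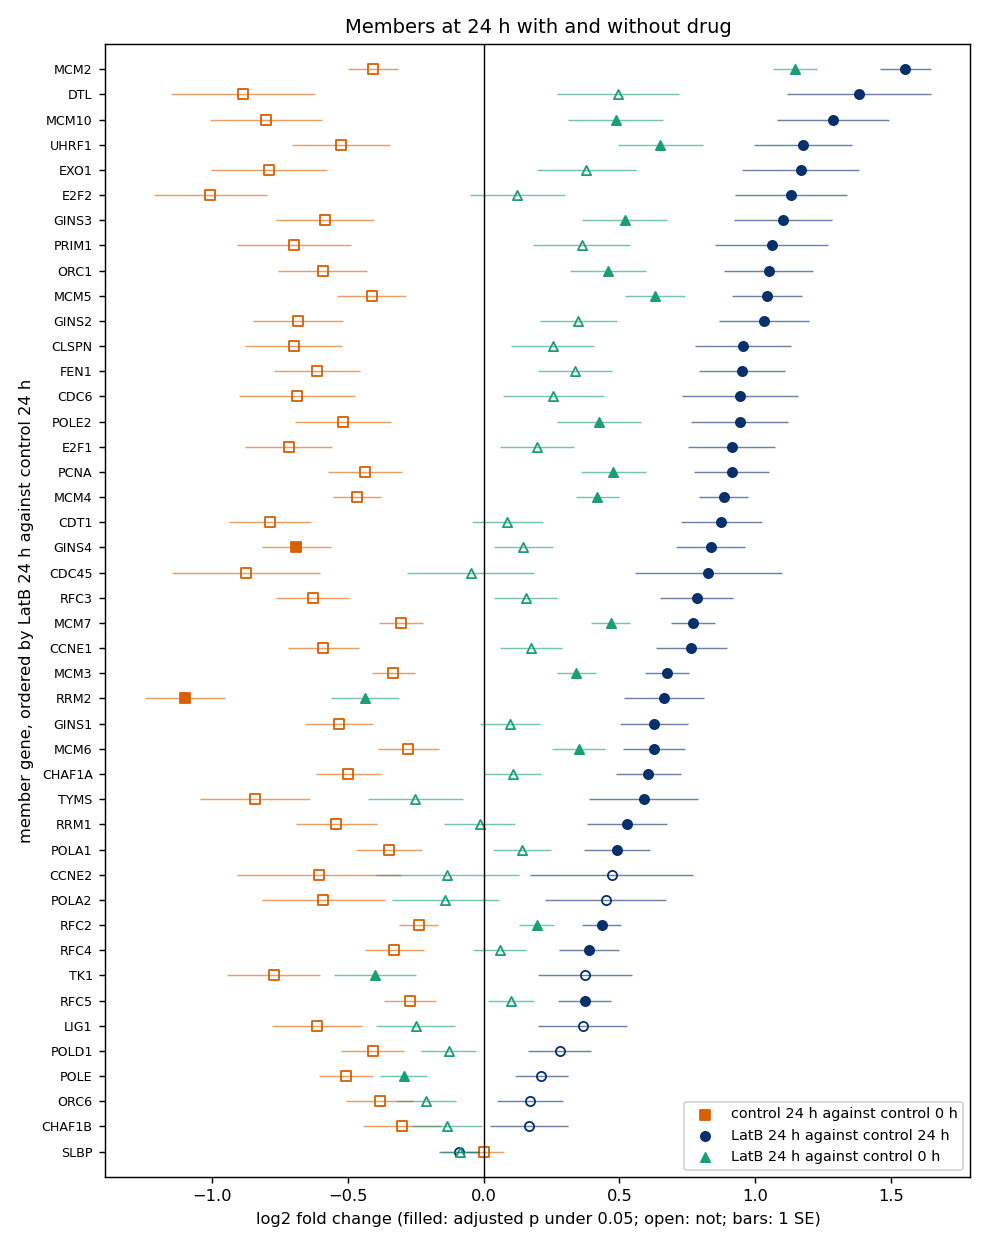
Points give the log2 fold change of each member (x axis) in 3 comparisons, with bars of 1 SE and filled symbols where the adjusted p was under 0.05; genes are ordered by LatB 24 h against control 24 h. The orange squares (control 24 h against control 0 h) sat left of 0 for 43 of 44 genes, the blue circles (LatB 24 h against control 24 h) right of it for 43, and the green triangles (LatB 24 h against control 0 h) lay between them, centred near 0.16.

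Every helicase gene was higher. MCM2 to MCM7 form the ring that unwinds DNA, and MCM10 helps to activate it. All 7 were called higher against control 24 h, with log2 fold changes from 0.63 to 1.55, and all 7 were among the 13 called higher against control 0 h as well. MCM2 (chr3:127598410-127622436, plus strand, GRCh38) was at 53.0, 51.4 and 52.3 CPM in control 0 h, 36.2 and 42.6 CPM in control 24 h, and 113, 119 and 115 CPM in LatB 24 h. Every LatB 24 h library lay above every control library. The log2 fold change was 1.55 ± 0.09 against control 24 h (adjusted p = 2.59e-07) and 1.15 ± 0.08 against control 0 h (adjusted p = 4.92e-07). MCM5 was at 29.5, 26.6 and 27.995 CPM in control 0 h, 20.2 and 21.95 CPM in control 24 h, and 44.8, 42.8 and 42.7 CPM in LatB 24 h. Its values were 1.04 ± 0.13 (adjusted p = 4.17e-05) and 0.63 ± 0.11 (adjusted p = 5.19e-04) against the 2 controls. MCM10 had a log2 fold change of 1.29 ± 0.21 against control 24 h (adjusted p = 3.02e-04) and of 0.49 ± 0.17 against control 0 h (adjusted p = 0.0385).

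The partners that turn the ring into a working helicase were also higher than in the vehicle. All 5 genes of CDC45 and GINS were called higher, with log2 fold changes from 0.63 to 1.10. GINS2 was at 8.61, 7.91 and 8.27 CPM in control 0 h, 5.05 and 5.23 CPM in control 24 h, and 11.3, 10.5 and 9.81 CPM in LatB 24 h, with a log2 fold change of 1.03 ± 0.17 (adjusted p = 3.19e-04). Its 24 h drug libraries lay above every other library. CDC45, which travels with the fork, was at 3.80 and 4.48 CPM in control 24 h and 6.79, 8.69 and 6.55 CPM in LatB 24 h (0.83 ± 0.27, adjusted p = 0.0264), inside the range of 6.19 to 8.93 CPM of control 0 h.

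Of the 4 genes of origin recognition and licensing, 3 were called higher. CDC6, which loads the helicase with CDT1, was at 15.2, 11.9 and 14.4 CPM in control 0 h, 7.59 and 9.55 CPM in control 24 h, and 16.1, 18.7 and 14.6 CPM in LatB 24 h (0.94 ± 0.21 against control 24 h, adjusted p = 3.42e-03). CDT1 was at 13.5, 16.3 and 15.1 CPM in LatB 24 h (0.88 ± 0.15, adjusted p = 5.14e-04). Both genes overlapped control 0 h. ORC6, a subunit of the origin recognition complex, was not called, with 18.8 and 18.5 CPM in control 24 h and 23.2, 19.6 and 20.3 CPM in LatB 24 h.

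Among the clamp, its loader and the enzymes that mature Okazaki fragments, 7 of 8 genes were called higher. PCNA (chr20:5114953-5126626, minus strand), the sliding clamp of the polymerases, was at 77.1, 66.5 and 70.0 CPM in control 0 h, 48.7 and 56.5 CPM in control 24 h, and 104, 100.3 and 93.3 CPM in LatB 24 h. Its log2 fold change was 0.91 ± 0.14 against control 24 h (adjusted p = 1.96e-04) and 0.48 ± 0.12 against control 0 h (adjusted p = 5.82e-03). The drug libraries at 24 h were the highest of the series for this gene. LIG1, the ligase that seals the fragments, was not called, with 16.8 and 19.2 CPM in control 24 h and 23.0, 26.1 and 20.5 CPM in LatB 24 h.

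Polymerase genes were divided. Of 6, 3 were called higher and 3 were not. POLE2, a subunit of the leading-strand polymerase, was at 3.43, 2.71 and 2.54 CPM in control 0 h, 2.14 and 1.91 CPM in control 24 h, and 4.03, 4.11 and 3.53 CPM in LatB 24 h (0.94 ± 0.18, adjusted p = 9.88e-04). POLE, the catalytic subunit of the same enzyme, was at 66.2, 65.1 and 65.6 CPM in control 0 h, 46.6 and 45.8 CPM in control 24 h, and 56.4, 56.2 and 47.9 CPM in LatB 24 h. Every LatB 24 h library of POLE was thus below every control 0 h library (-0.29 ± 0.09, adjusted p = 0.0152) and above both control 24 h libraries (adjusted p = 0.102). POLA2, which holds the primase to polymerase alpha, was at 5.08 and 5.51 CPM in control 24 h and 8.09, 7.80 and 5.82 CPM in LatB 24 h, which did not pass.

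Of the 4 genes of nucleotide supply, RRM2, RRM1 and TYMS were called higher against control 24 h, and against control 0 h RRM2 and TK1 were called lower and 0 were called higher. RRM1, the large subunit of ribonucleotide reductase, was at 52.6, 58.9 and 53.8 CPM in LatB 24 h, 36.6 and 39.9 CPM in control 24 h and 60.7, 54.0 and 52.3 CPM in control 0 h, so it overlapped control 0 h. RRM2 (chr2:10120698-10211725, plus strand) was at 41.4, 43.3 and 36.3 CPM in LatB 24 h, between control 24 h (22.7 and 28.2 CPM) and control 0 h (50.9 to 59.5 CPM). Its log2 fold change was 0.66 ± 0.15 against control 24 h (adjusted p = 2.84e-03) and -0.44 ± 0.13 against control 0 h (adjusted p = 0.0136). TYMS, which makes thymidylate, was at 41.9, 40.3 and 33.1 CPM in LatB 24 h, 24.98 and 26.1 CPM in control 24 h and 50.8, 43.8 and 42.8 CPM in control 0 h (0.59 ± 0.20 against control 24 h, adjusted p = 0.0314). TK1, the S phase thymidine kinase, was at 9.72, 11.5 and 10.3 CPM in LatB 24 h and 15.7, 12.9 and 13.02 CPM in control 0 h (-0.40 ± 0.15, adjusted p = 0.0467). All 3 drug values of RRM2, TYMS and TK1 lay under control 0 h, though TYMS was not called in that comparison (adjusted p = 0.269).

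Of the 6 genes of cyclin E, E2F and the S phase checkpoint, 5 were called higher against control 24 h and 0 against control 0 h. DTL (chr1:212035553-212107400, plus strand), part of the ligase that degrades CDT1 once DNA is being copied, was at 12.3, 9.92 and 10.9 CPM in control 0 h, 4.88 and 7.01 CPM in control 24 h, and 16.3, 15.5 and 14.8 CPM in LatB 24 h (1.38 ± 0.26, adjusted p = 1.11e-03). E2F1 was at 15.1, 14.8 and 14.9 CPM in LatB 24 h (0.91 ± 0.16, adjusted p = 5.80e-04). CCNE1, a cyclin that starts S phase, was at 7.63 and 7.61 CPM in control 24 h and 11.6, 13.8 and 13.4 CPM in LatB 24 h (0.76 ± 0.13, adjusted p = 4.86e-04). CLSPN, the checkpoint adaptor claspin, was at 10.5 and 11.2 CPM and then 22.2, 21.9 and 19.2 CPM (0.95 ± 0.18, adjusted p = 8.70e-04). The second cyclin E gene, CCNE2, had few reads (47 to 130 per library) and was at 2.24 and 2.60 CPM in control 24 h and 3.45, 3.99 and 2.63 CPM in LatB 24 h (0.47 ± 0.30, adjusted p = 0.232).

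The genes of chromatin assembly and DNA methylation were mixed. UHRF1, which brings the maintenance methyltransferase to new DNA, was at 22.7, 18.9 and 20.4 CPM in control 0 h, 13.6 and 15.1 CPM in control 24 h, and 34.0, 33.7 and 29.7 CPM in LatB 24 h. It was called higher against control 24 h (1.18 ± 0.18, adjusted p = 2.29e-04) and against control 0 h (0.65 ± 0.16, adjusted p = 4.40e-03). SLBP was at 65.8, 65.9 and 70.2 CPM in LatB 24 h, overlapping control 24 h (-0.09 ± 0.07, adjusted p = 0.340).

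**Figure D3:**
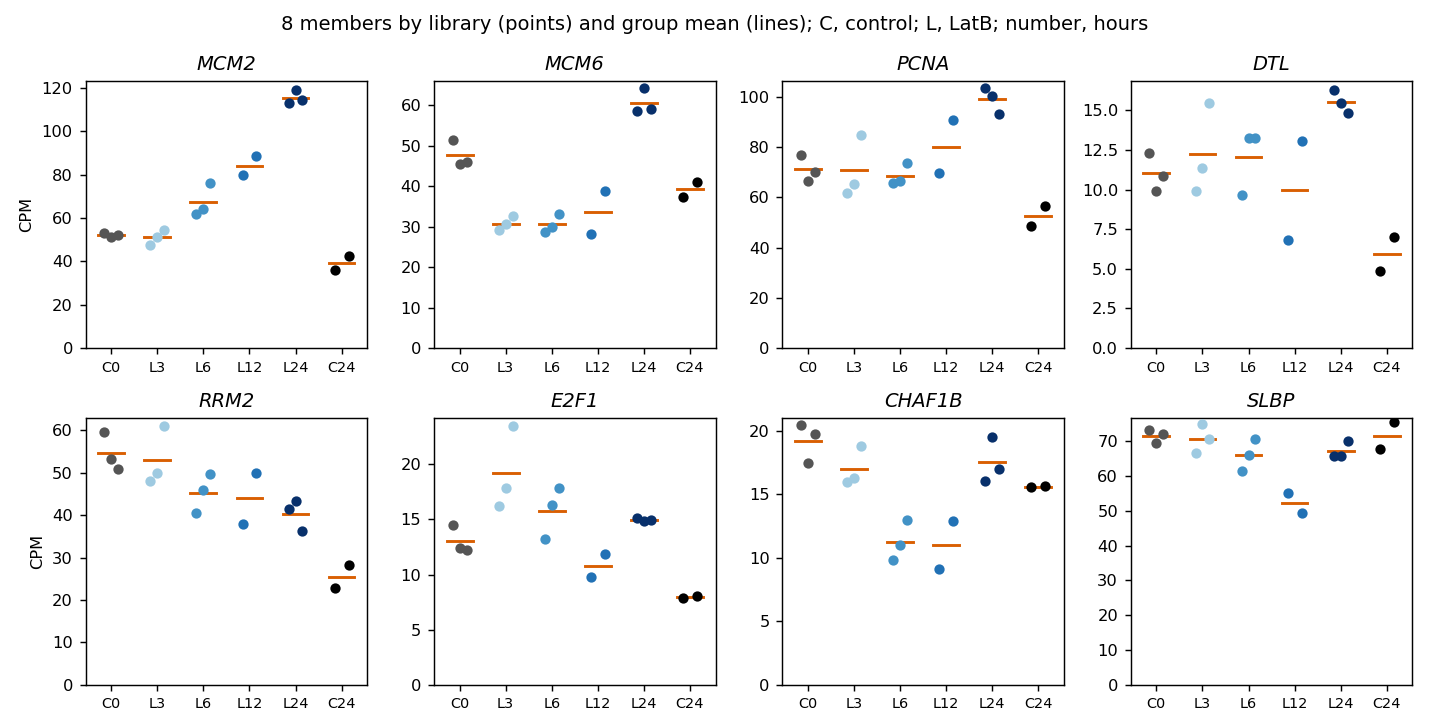
CPM of 8 members in each library (points) with group means (orange lines); C0 and C24 are the controls and L3 to L24 the hours in latrunculin B. MCM2 climbed through the drug course to 113 to 119 CPM, MCM6 fell by 3 h and was highest at 24 h, RRM2 stayed under its 0 h level at 24 h, and SLBP ranged from 49.4 to 75.4 CPM.

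Within 3 h of drug the set as a whole hardly moved. Of 44 members 4 were called lower, against 14.7% of all genes, and 4 higher, against 16.8%, with a median of 0.04. The 4 lower were MCM6, GINS1, MCM3 and MCM5. Of the 7 MCM genes 3 were lower, 1 was higher (MCM7) and 3 were not called, and of the 5 genes of CDC45 and GINS 1 was lower. MCM6 (chr2:135839626-135876443, minus strand) was at 51.4, 45.4 and 45.9 CPM in control 0 h and 29.0, 30.6 and 32.7 CPM in LatB 3 h, and the groups did not overlap (-0.63 ± 0.10, adjusted p = 3.66e-04). GINS1 had a log2 fold change of -0.42 ± 0.11 (adjusted p = 0.01), MCM3 of -0.34 ± 0.07 (adjusted p = 2.65e-03) and MCM5 of -0.33 ± 0.11 (adjusted p = 0.0382). The 4 higher were E2F1, RFC3, CDT1 and MCM7. E2F1 was at 14.5, 12.4 and 12.3 CPM and then at 16.2, 17.9 and 23.4 CPM (0.56 ± 0.14, adjusted p = 7.28e-03). RFC3, a subunit of the clamp loader, rose by 0.43 ± 0.12 (adjusted p = 0.0124), CDT1 by 0.39 ± 0.13 (adjusted p = 0.0339) and MCM7 by 0.29 ± 0.07 (adjusted p = 7.13e-03). The third LatB 3 h library had the highest value of its group in 41 members, and the share of all genes was not counted. The 4 higher calls were not made by limma on log2(TPM + 1), which called 5 lower and 0 higher, and MCM7 shares exon sequence with AP4M1 on the other strand.

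At 6 h, 8 members were lower, against 20.4% of all genes, and 4 were higher, against 22.9%, with a median of -0.12. Without scaling of the libraries 15 were lower and 3 higher, and in a fit of LatB 6 h and control 0 h alone 14 were lower and 5 higher. The largest fall was that of CHAF1B, a subunit of the chromatin assembly factor that places histones on new DNA. It was at 20.5, 17.5 and 19.7 CPM in control 0 h and 9.82, 10.97 and 12.98 CPM in LatB 6 h (-0.77 ± 0.13, adjusted p = 3.88e-04). POLE2 was at 1.83, 1.78 and 1.95 CPM, below all control 0 h values (-0.64 ± 0.16, adjusted p = 5.25e-03). MCM6 stayed low at 28.7, 29.8 and 33.2 CPM (-0.64 ± 0.10, adjusted p = 2.21e-04), and GINS2 was at 5.33, 5.75 and 6.96 CPM (-0.46 ± 0.15, adjusted p = 0.0217). MCM2 had begun to rise, with 61.8, 64.1 and 76.1 CPM (0.37 ± 0.08, adjusted p = 2.65e-03). RFC3 (0.43 ± 0.12, adjusted p = 9.12e-03), MCM7 (0.40 ± 0.07, adjusted p = 5.36e-04) and CDT1 (0.36 ± 0.13, adjusted p = 0.0378) were the other genes called higher. In these the 3 LatB 6 h libraries lay above the 3 control 0 h libraries.

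At 12 h, 5 members were lower, against 16.8% of all genes, and 2 higher, against 19.1%, with a median of -0.14. The lower genes were CHAF1B (-0.80 ± 0.15, adjusted p = 1.12e-03), MCM6 (-0.50 ± 0.11, adjusted p = 4.30e-03), TK1 (-0.47 ± 0.17, adjusted p = 0.0466), SLBP (-0.45 ± 0.07, adjusted p = 4.08e-04) and CCNE1 (-0.45 ± 0.13, adjusted p = 0.0164). SLBP was at 55.1 and 49.4 CPM at 12 h, its lowest values in the series. MCM2 was at 79.8 and 88.6 CPM (0.69 ± 0.09, adjusted p = 7.2e-05) and MCM7 at 155 and 133 CPM (0.24 ± 0.08, adjusted p = 0.0304). The result depended on 1 library: without LatB 12 h replicate 2, 16 members were called (14 lower, 2 higher), and without LatB 12 h replicate 1, 5 were called. Without control 0 h replicate 1, 4 were called. Replicate 1 was the lower of the 12 h libraries in summed TPM of the members (773 against 1039), and replicate 2 held the higher liver and mesenchyme levels given above, whose part in the result was not tested.

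The drug groups of 3 h to 12 h have no vehicle group of their own time among these libraries, so control 24 h serves as the other reference. Against it the early drug groups were high in most members. At 3 h, 31 members were higher (17.8% of all genes) and 1 lower (14.6%), at 6 h 23 were higher (22.4%) and 2 lower (18.9%), and at 12 h 21 were higher (18.4%) and 2 lower (15.7%). MCM6 was the member lower at 3 h, MCM6 and CHAF1B were those at 6 h, and CHAF1B and SLBP those at 12 h. The median differences were 0.59, 0.49 and 0.44.

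Comparing drug groups with each other used no control library. From 3 h to 6 h, 3 members fell, against 10.3% of all genes, and 2 rose, against 11.9%. The falls were CHAF1B (-0.60 ± 0.13, adjusted p = 5.89e-03), CCNE1 (-0.43 ± 0.11, adjusted p = 0.0155) and GINS4 (-0.33 ± 0.11, adjusted p = 0.0458), and the rises MCM2 (0.39 ± 0.08, adjusted p = 4.06e-03) and MCM3 (0.22 ± 0.07, adjusted p = 0.0458). Without LatB 6 h replicate 2 the calls from 3 h to 6 h numbered 2, and without LatB 3 h replicate 1 or LatB 6 h replicate 1 they numbered 3. From 6 h to 24 h, 17 rose, against 19% of all genes, and 1 fell, against 18.9%, with a median of 0.30. The largest rises were POLE2 (1.07 ± 0.16, adjusted p = 1.69e-04), MCM6 (0.99 ± 0.10, adjusted p = 8.98e-06), MCM5 (0.89 ± 0.11, adjusted p = 4.6e-05) and GINS2 (0.81 ± 0.15, adjusted p = 7.32e-04). MCM6 went from 28.7, 29.8 and 33.2 CPM to 58.4, 64.1 and 59.1 CPM. POLE was the gene that fell (-0.31 ± 0.09, adjusted p = 0.0125), a call that was lost without LatB 24 h replicate 3 (-0.24). MCM6, MCM5, MCM3 and POLE2 were called lower at 3 h or 6 h against control 0 h and higher at 24 h against both controls. GINS1, GINS2, GINS4, POLA1 and RFC4 were also called lower at 3 h or 6 h, but higher at 24 h against control 24 h only. How many of all genes took such a course was not counted.

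The log2 fold change of LatB 24 h against control 24 h was compared with that of LatB 3 h against control 0 h, by a test of their difference. Control 0 h is not a vehicle group of the 3 h time. The drug's part was thus not tested apart from the change between the controls. In 27 members the value at 24 h was the higher, against 14.6% of all genes, and in 0 the lower, against 13.4%. The median difference was 0.71 (log2). Each difference includes the change between the 2 controls, in which the members had a median of -0.59. MCM2 had the largest difference (1.58 ± 0.12, adjusted p = 5.21e-06). Next came E2F2, an activator of the same family as E2F1 (1.58 ± 0.27, adjusted p = 9.88e-04), and MCM5 (1.37 ± 0.17, adjusted p = 9.97e-05). E2F1 (0.36 ± 0.21, adjusted p = 0.225) and CDT1 (0.48 ± 0.20, adjusted p = 0.0840), which had risen by 3 h, did not pass. Without control 24 h replicate 1 the count was 15. With the offset for transcript length it was 19, and with limma on log2(TPM + 1) it was 18.

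Over all libraries, 12 members had every LatB 24 h library above every other library, against 5.06% of all genes. They were MCM2 to MCM7, PCNA, GINS2, GINS3, POLA1, POLE2 and RFC2. Both control 24 h libraries lay below every other library in 25 members, against 3.88% of all genes, RRM2, TYMS, CDT1, E2F1, CCNE1 and CLSPN included. Control 24 h had the lowest group mean in 37 members. The highest group mean was that of LatB 24 h in 25 members, of LatB 3 h in 10, of control 0 h in 6 and of LatB 6 h in 2, and the remaining gene was SLBP. For the lowest and highest group means the share of all genes was not counted.

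The members were also compared for how closely each followed the mean of the set, by Pearson's r over the 6 group means. The genes most like the mean were CDC6 (r = 0.98), DTL (r = 0.97), FEN1 (r = 0.97) and CLSPN (r = 0.97), and the least like it SLBP (r = -0.03), CHAF1B (r = 0.27) and MCM6 (r = 0.35). Each r rests on 6 group means that share libraries and that include the gene itself in the mean, and is a description. CHAF1B was at 16.04, 19.5 and 16.99 CPM in LatB 24 h, above control 24 h (15.5 and 15.7 CPM) by a log2 fold change of 0.17 ± 0.14 (adjusted p = 0.382). The 5 members called in no main comparison with a control were CCNE2, LIG1, ORC6, POLA2 and POLE. Comparisons with the other control as reference are left out of this count. There LIG1, ORC6 and POLE were called higher in LatB 3 h against control 24 h. POLE was also called higher in LatB 6 h against control 24 h and lower in LatB 24 h against control 0 h.

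Other genes of the cell cycle were counted from lists fixed together with the member list. Of 64 further replication genes, 46 were higher in LatB 24 h against control 24 h, against 21.9% of all genes. Lower were 3, against 18.8%, and the median was 0.44. The largest rises were DSCC1, part of an alternative clamp loader (1.05 ± 0.20, adjusted p = 9.58e-04), and TIPIN, of the fork protection complex (0.96 ± 0.18, adjusted p = 1.05e-03). The falls were led by CHTF18, a partner of DSCC1 (-0.42 ± 0.15, adjusted p = 0.0340), and GMNN, the inhibitor of CDT1 (-0.29 ± 0.10, adjusted p = 0.0412). In the drug-free day 1 of these 64 was lower, against 0.221% of all genes, and 0 higher, against 0.0299%, with a median of -0.31.

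Genes of mitosis and G2 phase were counted in the same way, and the difference between lists was not tested. Of 32, 7 were higher in LatB 24 h against control 24 h, near the share of all genes (21.9%), and 0 lower, against 18.8%. The median was 0.19, and the rises were led by AURKA (0.67 ± 0.12, adjusted p = 7.23e-04) and ANLN (0.56 ± 0.11, adjusted p = 1.40e-03). In the drug-free day 6 of the 32 were lower, against 0.221% of all genes, and 0 higher, against 0.0299%. The median was -0.73, and the falls among the genes called were led by NUF2 (-0.95 ± 0.16, adjusted p = 0.0469) and CDK1 (-0.86 ± 0.15, adjusted p = 0.0469). From 6 h to 24 h in the drug, 13 mitosis genes fell, against 18.9% of all genes, and 1 rose, against 19%. Their median was -0.30, while the members had a median of 0.30. CDK1, the kinase that drives mitosis, had the largest fall (-0.76 ± 0.13, adjusted p = 5.43e-04). Their summed TPM was 672 to 784 in control 0 h, 417 and 508 in control 24 h, and 468 to 623 in LatB 24 h, so the drug libraries overlapped the vehicle and lay under control 0 h.

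A further list held 16 genes of CDK inhibitors, D cyclins and their kinases, pocket proteins and the E2F factors E2F4 and E2F5. In LatB 24 h against control 24 h, 2 of the 16 were higher, against 21.9% of all genes, and 3 lower, against 18.8%. Neither count stood above the share of all genes. CDKN1B, which encodes the inhibitor p27, had the largest rise in the list (1.03 ± 0.11, adjusted p = 1.81e-05), followed by CDK4, a kinase that works with D cyclins (0.60 ± 0.07, adjusted p = 1.95e-05). The largest falls among the genes called were CDKN1C, which encodes p57 (-0.46 ± 0.17, adjusted p = 0.0415), and RBL2, a relative of RB (-0.44 ± 0.05, adjusted p = 4.68e-05). At 3 h CDKN2C, an inhibitor of CDK4 and CDK6, had the largest fall (-1.99 ± 0.33, adjusted p = 4.77e-04).

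**Figure D4:**
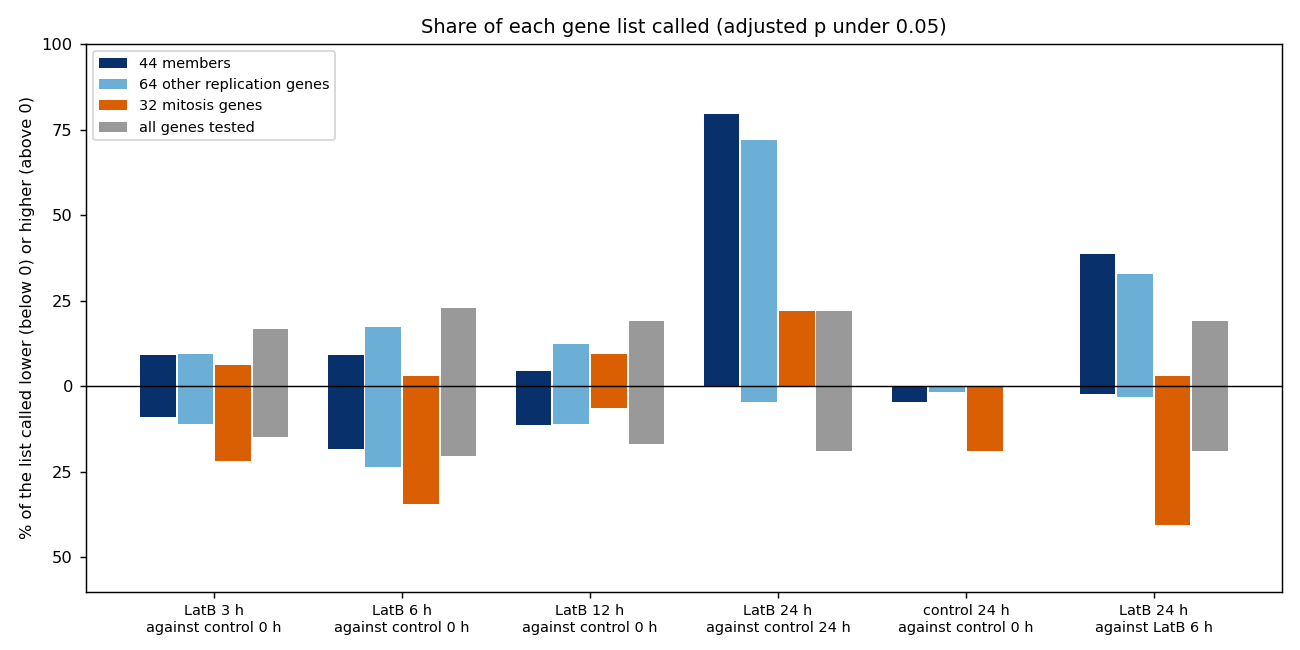
Bars give the percent of each list called higher (above 0) and lower (below 0) in 6 comparisons, beside all 16705 genes tested. The 44 members and the 64 other replication genes stood above all genes at 24 h against control 24 h (35 of 44 and 46 of 64 higher), and 7 of the 32 mitosis genes were higher, near the share of all genes, and in 3 h, 6 h and 12 h of drug the members were called no more often than all genes.

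Members whose promoter held an E2F match, such as MCM6, E2F1 and PCNA, were set beside those without, such as CDC6. In LatB 24 h against control 24 h the median log2 fold change was 0.78 for the 16 with a match (13 called higher) and 0.71 for the 24 without (19 called higher), and in control 24 h against control 0 h it was -0.60 and -0.56. Of all genes, 21.9% were called higher in LatB 24 h against control 24 h. In LatB 3 h against control 0 h, 4 of the 16 with a match were called higher (E2F1, RFC3, CDT1 and MCM7) and 2 lower. Of the 24 without a match 0 were called higher and 1 lower, against 16.8% and 14.7% of all genes. The medians were 0.09 and 0.07. The 4 higher calls were not made by limma on log2(TPM + 1), and those of CDT1 and RFC3 were also lost on leaving out 1 library. No test was made between the promoters with and without a match. A match is a description of letters and not a site of binding.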

How the data were processed

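Poly(A) RNA-seq was analysed in 16 libraries of differentiated human embryonic stem cells. Per the labels, the authors quantified transcripts with Salmon 1.3.0 on hg38, whereas the methods of the study name another route (alignment with STAR and gene counts). The deposited tables are Salmon tables with estimated counts and TPM per transcript, and the values used here come from them. The estimated counts deposited by the authors were summed per gene through GENCODE 44 (165533 of 177456 transcripts matched, 151923 in the same version), rounded to whole numbers, and 2.92 to 3.17% of reads stayed unmatched. TPM values made by the authors were summed per gene. A gene table of the authors (16 sample columns) and a table of their fold changes and p-values were not used.

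CPM were scaled by trimmed mean of M values (TMM). One edgeR 4.0.16 quasi-likelihood fit (R 4.3.3) held all 16 libraries in 6 groups, after filtering low counts by group, and p-values (two-sided) were adjusted by Benjamini-Hochberg over 16705 genes, called under 0.05. SE is the log2 fold change divided by the square root of F. Alternatives used DESeq2 1.42.0, limma 3.58.1 on log2(TPM + 1) and log2(TPM + 0.1) with a mean TPM of at least 1, other scalings, filters, samples and thresholds. The text names a fixed panel of 16 members by role, and in each comparison the 4 largest called falls and rises; other lists are named by their 2 largest. Further genes were singled out after their values were seen. The members and all lists were chosen with earlier results of these data known. Promoters and positions came from RefSeq GRCh38.p14 and GENCODE.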

Additional observations from a re-analysis of the deposited data

Results flagged for a closer look

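In 27 of the 44 members the log2 fold change of LatB 24 h against control 24 h differed from that of LatB 3 h against control 0 h. This was edgeR's quasi-likelihood test of the difference with Benjamini-Hochberg adjustment, and all 27 had the higher value at 24 h. Among the largest differences on the log2 scale and in the fixed panel were MCM2 (1.58), E2F2 (1.58), MCM5 (1.37), PRIM1 (1.28), POLE2 (1.25), GINS2 (1.19), PCNA (0.92), UHRF1 (0.85), CDC6 (0.83), CLSPN (0.71) and RRM2 (0.71). The calls of RRM2 and UHRF1 were lost without control 24 h replicate 1, and those of CDC6 and CLSPN were lost in most fits that left out 1 library. Each difference includes the change between the 2 control groups, and the 3 h effect and the 24 h effect were measured against different controls. The mean of CLSPN was 21.0 CPM in LatB 3 h and 21.1 in LatB 24 h, against 17.7 in control 0 h and 10.9 in control 24 h. RRM2 fell from 53.0 to 40.3 CPM between these drug groups and from 54.6 to 25.4 between the controls. MCM2 rose from 51.3 to 116 CPM in the drug and fell from 52.2 to 39.4 between the controls.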

How the results depend on the processing

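Counts of members called, over the 8 comparisons, are given in the order of the report where a setting moved them by more than 1.5 times. In control 24 h against control 0 h (2 called), DESeq2 gave 22, the 2 control groups alone 16, the fit without both LatB 12 h libraries (chosen after seeing the data) 15, a mean of at least 50 counts 6, no filter 5, RLE scaling, no scaling and a log2 change of at least 1 gave 1 each, and an offset for length, limma with either pseudocount and an adjusted p under 0.01 gave 0. A log2 change of at least 1 gave 0 at 3 h, 6 h, 12 h and from 3 h to 6 h, 11 at 24 h, 1 from 6 h to 24 h and 11 for the difference of effects. An adjusted p under 0.01 gave 4, 7 and 4 at 3 h, 6 h and 12 h, 2 from 3 h to 6 h and 16 for the difference. Limma gave 5 at 3 h and 2 at 12 h and from 3 h to 6 h with either pseudocount, the length offset 2 at 12 h and 2 from 3 h to 6 h, no filter 3 from 3 h to 6 h, and the compared groups alone 19 at 6 h and 3 at 12 h. With the other control as reference the counts were 32, 25, 23 and 16 at 3 h, 6 h, 12 h and 24 h. Apart from settings that only restrict the calls (fewer pass a stricter threshold), the cause was not tested.

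Leaving out 1 library at a time gave 6 to 9 members at 3 h, 9 to 13 at 6 h, 4 to 16 at 12 h, 27 to 36 at 24 h, 0 to 1 in the drug-free day, 2 to 6 from 3 h to 6 h, 14 to 19 from 6 h to 24 h and 15 to 35 for the difference. Single calls lost in this way were CDT1, MCM5 and RFC3 at 3 h, CDT1, GINS2 and RFC3 at 6 h, CCNE1, MCM7 and TK1 at 12 h, CDC45, CDC6, RRM2 and TYMS at 24 h, GINS4 and RRM2 in the drug-free day, CCNE1, GINS4 and MCM3 from 3 h to 6 h, POLE and UHRF1 from 6 h to 24 h, and CDC6, CLSPN, RRM2 and UHRF1 for the difference. Other tests, scalings, filters and sets of groups also lost calls. At 3 h these were CDT1, E2F1, MCM7 and RFC3, and at 6 h CDT1, CHAF1B, GINS2, POLE2 and RFC3. At 12 h they were CCNE1, CHAF1B, MCM6, MCM7 and TK1, and at 24 h CDC45, POLE2, RRM2 and TYMS. In the drug-free day GINS4 and RRM2 were lost. From 3 h to 6 h CHAF1B, GINS4 and MCM3 were lost, from 6 h to 24 h POLE, and for the difference CDC6, POLE2 and RRM2. Only the genes that the text names by rule were followed in these checks.

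Values that turned in sign were small or rested on the reference. In control 24 h against control 0 h, POLE2 was 0.020 with the length offset and 0.035 and 0.044 with limma, and SLBP was -0.017 with the length offset, -0.011 with limma at either pseudocount, and -0.076 to 0.077 with 1 library left out. With the other control, MCM5 was 0.081 and GINS1 0.11 at 3 h, GINS2 0.23 at 6 h, CCNE1 0.14 and TK1 0.30 at 12 h, and CDC45 -0.047, RRM2 -0.44, TYMS -0.25 and CCNE2 -0.13 at 24 h.

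Replicate numbers did not pair the samples: deviations of same-numbered samples correlated at -0.24 to 0.12 (median -0.02), over 0.1 in 2 of 36 pairs. With a replicate block the counts were 9, 11, 6 and 34 at 3 h, 6 h, 12 h and 24 h, 1 in the drug-free day, 4 and 19 between drug groups and 25 for the difference. Without scaling, the median of all genes moved to -0.10 at 6 h and 0.14 from 6 h to 24 h, and the percent of calls that were higher went from 53.3 to 36.1 at 3 h, 52.8 to 37.7 at 6 h, 50.1 to 73.8 from 6 h to 24 h and 52.1 to 69 for the difference.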
